A study of Homo sapiens with 10 samples.

Results

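The apolipoproteins and the protein that loads APOB with lipid were examined in HepG2 cells with and without tunicamycin. The members were 10 genes matched by their symbol in a table of 32738 genes: APOA1, APOA2, APOA4, APOB, APOC1, APOC3, APOE, APOH, APOM and MTTP. All 10 passed the filter on low counts, which left 12733 genes. HepG2 is an established human hepatoma line, so the results describe 1 line and not normal hepatocytes. Cells were kept for 17 h either in growth medium alone (control) or in growth medium with 2 µg/ml tunicamycin, an inhibitor of N-linked glycosylation that causes endoplasmic reticulum (ER) stress. Both groups had the same base medium with serum, no genetic change is named for either group, and the labels mention no vehicle in the control medium. Each group had 5 libraries, from 5 experiments that the series text places on separate days. Sequencing covered the 3′ ends of mRNA, so a gene's counts stand for transcripts and were not divided by gene length.

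Apolipoproteins coat lipoproteins, the particles that carry lipid in blood. In hepatocytes, very-low-density lipoprotein (VLDL) begins in the ER, where MTTP, the microsomal triglyceride transfer protein, adds lipid to APOB while APOB is being made. APOA1 and APOA2 form the frame of high-density lipoprotein (HDL), and the smaller apolipoproteins move between particles and set how they are processed or taken up.

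The libraries held between 2234682 and 5029864 counts, with medians of 4767865 in control and 4447956 in tunicamycin libraries. Tunicamycin replicates 4 and 5 had the lowest totals, 3567316 and 2234682. Mitochondrial genes took 22.7% to 25.2% of control counts and 18.3% to 28.8% of tunicamycin counts, highest in tunicamycin replicate 4. All 11 hepatocyte markers examined, among them ALB and AFP, were detected in every group, with summed normalized counts of 35147 to 57257 in control and 36070 to 45964 in tunicamycin libraries. Of these 11 markers 5 were called lower and 0 higher in the edgeR test, where 16.6% of all tested genes were called lower. Those called were FGA (log2 fold change −1.23), TTR (−1.02), FGB (−0.76), GPC3 (−0.52) and TF (−0.38), which moved in the direction of the members' changes. The other 6 were not called: HNF4A (0.26), SERPINA1 (0.08), FGG (0.04), ALB (0.04), AHSG (−0.14) and AFP (−0.16). The part of the hepatocyte markers in the results was not tested. Of 8 intestinal markers, SI, APOBEC1 and MUC2 had 0 counts, which in 1 library, taken alone, allows up to 3 counts. The 8 summed to 652 to 792 in control and 486 to 561 in tunicamycin libraries. The 2 intestinal markers tested moved in opposite directions. VIL1 went from a mean of 721 to 515 normalized counts (log2 fold change −0.49, edgeR adjusted p = 0.000185), and FABP2 from a mean of 1.12 to 11.9 normalized counts (log2 fold change 3.21, edgeR adjusted p = 0.000602) on 53 counts in all. CDX2 had 10 counts in all, each of them in control libraries, and was not tested. The part of these markers in the results was not tested. Of 6 blood, vessel and stroma markers in the table, PTPRC had 0 counts, and all 18 counts of CDH5 were in tunicamycin replicate 4. The 6 summed to 129 to 199 in control and 65.9 to 227 in tunicamycin libraries, mostly from ACTA2. ACTA2 went from a mean of 138 to 106 normalized counts and was not called (log2 fold change −0.40, edgeR adjusted p = 0.169). CD68 went from a mean of 27.8 to 15.6 and was called lower (log2 fold change −0.83, edgeR adjusted p = 0.0319). The part of these 6 markers in the results was not tested.

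Of the 10 genes, 7 were lower with tunicamycin, 0 were higher and 3 did not pass the test. A gene was called when its adjusted p, from the quasi-likelihood test of edgeR with Benjamini-Hochberg adjustment over all genes tested, was under 0.05. By the same rule 34.2% of all tested genes were called, 16.6% lower and 17.6% higher. The median log2 fold change was −0.54 over the 10 genes and −0.00 over all tested genes. In bulk libraries such as these, fewer expressing cells and less RNA per cell cannot be told apart. The genes called lower were APOC3, APOA4, APOA1, APOB, APOH, APOC1 and APOA2, in order of the size of the change, and those not called were APOE, APOM and MTTP. With library totals alone as the scale, higher genes made up 40.8% of all calls, against 51.4% in the main fit, and 7 of the 10 genes were again called.

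**Figure D1:**
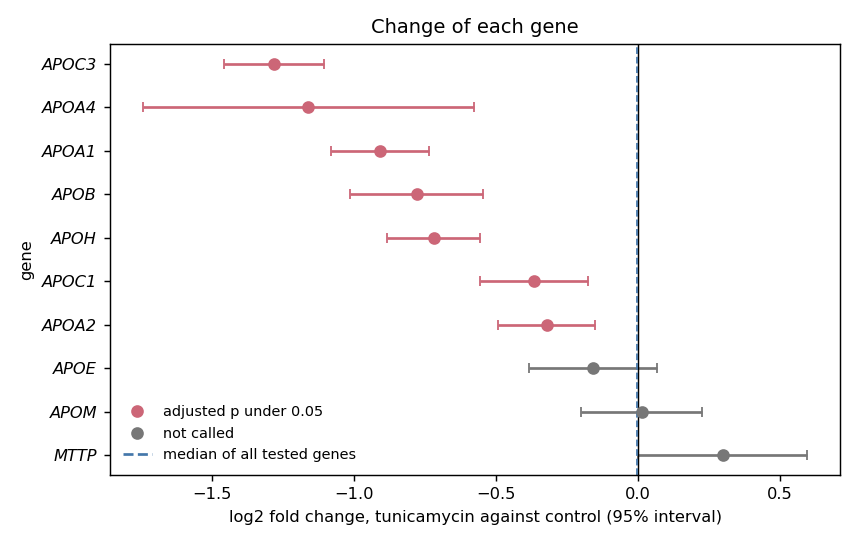
Log2 fold change of each gene (x axis, tunicamycin against control, 95% interval) for the 10 genes (y axis), with called genes in red, genes not called in grey and the median of all tested genes as a dashed line. The points run from −1.28 for APOC3 to 0.30 for MTTP, and the 7 intervals of the called genes lie below 0.

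The genes lie on 7 chromosomes, and 5 of them sit in clusters. In GRCh38, APOA4 (chromosome 11, 116820700 to 116823304, minus strand), APOC3 (116829706 to 116833072, plus strand) and APOA1 (116835751 to 116837622, minus strand) share a stretch of 16923 bp. APOE (chromosome 19, 44905791 to 44909393, plus strand) and APOC1 (44914247 to 44919349, plus strand) share 13559 bp. APOA2 lies on chromosome 1 (161222292 to 161223631, minus strand), APOB on chromosome 2 (21001429 to 21044073, minus strand) and MTTP on chromosome 4 (99564081 to 99623997, plus strand). APOM lies on chromosome 6 (31652416 to 31658210, plus strand) and APOH on chromosome 17 (66212033 to 66256525, minus strand). Exons of APOA1, APOA4, APOB, APOM and MTTP overlap an annotated gene on the opposite strand, which for APOM is BAG6, and APOC1 and APOE share exon positions with ENSG00000280087 on the same strand. The strand setting of the counting is not given in the sources used here, so reads of such partners may be included. APOA1-AS, the antisense partner of APOA1, had 1 count in all libraries together.

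RefSeq (GRCh38.p14) promoter windows, from 250 bases before to 50 after the start site, were at hand for 7 of the 10 genes, in 10 entries. The windows of a pair of genes that fell, APOA4 and APOH, and of a pair that were not called, APOM and MTTP, are shown so that their letters can be set side by side. Capitals mark matches to the motifs listed after them, on either strand. They are APOA4 at chr11:116823255-116823554 (minus), APOH at chr17:66229366-66229665 (minus), APOM at chr6:31655644-31655943 (plus) and MTTP at chr4:99574574-99574873 (plus).
APOA4: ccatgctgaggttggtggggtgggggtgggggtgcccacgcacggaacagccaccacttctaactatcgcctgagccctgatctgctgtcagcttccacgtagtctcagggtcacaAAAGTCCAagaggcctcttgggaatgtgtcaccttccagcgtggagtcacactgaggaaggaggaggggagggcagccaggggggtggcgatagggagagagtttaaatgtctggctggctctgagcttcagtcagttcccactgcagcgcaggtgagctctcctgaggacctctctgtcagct
APOH: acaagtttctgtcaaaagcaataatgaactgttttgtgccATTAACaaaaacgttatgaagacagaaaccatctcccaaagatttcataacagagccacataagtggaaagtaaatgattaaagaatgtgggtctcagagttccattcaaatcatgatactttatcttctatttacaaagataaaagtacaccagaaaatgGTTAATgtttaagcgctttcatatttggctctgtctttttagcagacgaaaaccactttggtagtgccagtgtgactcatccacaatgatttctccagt
APOM: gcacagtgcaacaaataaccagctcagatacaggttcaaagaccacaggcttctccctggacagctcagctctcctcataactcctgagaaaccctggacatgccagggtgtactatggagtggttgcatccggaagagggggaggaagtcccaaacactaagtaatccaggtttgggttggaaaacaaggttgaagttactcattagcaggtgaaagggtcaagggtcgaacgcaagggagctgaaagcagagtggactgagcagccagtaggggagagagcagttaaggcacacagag
MTTP: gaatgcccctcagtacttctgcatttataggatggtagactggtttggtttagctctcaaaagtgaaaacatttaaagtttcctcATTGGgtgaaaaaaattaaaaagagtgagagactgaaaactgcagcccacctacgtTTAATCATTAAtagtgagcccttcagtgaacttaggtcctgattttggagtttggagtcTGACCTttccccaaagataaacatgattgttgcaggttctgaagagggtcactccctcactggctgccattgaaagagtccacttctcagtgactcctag

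The motifs were chosen with these sequences in view and are a description of letters, not of bound sites. The APOA4 window held AAAGTCCA, a form of the HNF4 element, with its first base at position −134 from the start site, and 1.14% of 35116 RefSeq promoters hold these letters. The APOH window held the HNF1 half-site GTTAAT at −210 and −49, found in 6.88% of promoters. The MTTP window held the HNF1 palindrome TTAATNATTAA at −109, found in 0.094% of promoters, the nuclear receptor half-site AGGTCA at −50, found in 13.8%, and a CCAAT box at −165, found in 34.6%. The other MTTP entry, with its start site at 99564130, and the APOM window held none of the motifs searched, nor did the windows of APOA2 and APOC1, which were also called lower. APOE, which was not called, held a CCAAT box at −27 in an entry and at −202 in another. A further APOE entry held none of the motifs. An HNF1 palindrome can include letters of the half-site, and the CCAAT box is part of the ER stress element. None of the 10 entries held the XBP1 and ATF6 element TGACGTGG (0.729% of promoters), the C/EBP-ATF composite TTGCATCA (0.866%), the CRE TGACGTCA (1.85%) or the ER stress element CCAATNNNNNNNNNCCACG (0.0769%).

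APOB, the structural protein of VLDL and low-density lipoprotein, was the most abundant of the 10 mRNAs in control cells and fell to 58.3% of the control mean. Normalized counts of APOB were 33030, 34800, 32283, 31910 and 30730 in the control libraries and 23527, 22039, 18892, 15147 and 15289 in the tunicamycin libraries, in replicate order. The groups did not overlap, and tunicamycin replicates 4 and 5, the libraries with the smallest totals, were the lowest. APOB had a log2 fold change of −0.78 (SE 0.11, edgeR adjusted p = 2.42e-05), with means of 32551 ± 1507 and 18979 ± 3820 (SD, n = 5 per group). It was −0.59 (edgeR adjusted p = 6.50e-05) against the 3 tunicamycin libraries with the largest totals. APOB varied more between tunicamycin libraries (coefficient of variation 20.1%) than between control libraries (4.63%).

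MTTP, which lipidates APOB, did not pass the test. In replicate order, the control libraries held 111, 89.2, 139, 154 and 142 normalized counts of MTTP, and the tunicamycin libraries 134, 153, 163, 181 and 151. The groups overlapped, but the tunicamycin library was the higher in 5 of 5 replicate pairs, by 0.09 to 0.77 on the log2 scale. The fitted log2 fold change of MTTP was 0.30 (95% interval 0.00 to 0.60, edgeR adjusted p = 0.114). With the replicate number as a block in edgeR it was 0.32 with an adjusted p of 0.0385, which passes the threshold, and with the same block in DESeq2 the adjusted p was 0.102. Leaving out 1 library at a time gave 0.19 to 0.39, lowest without control replicate 2, the library with the least MTTP, and no such fit called it.

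The number of MTTP counts per APOB count also differed between the groups. The log2 ratio rose by 1.12, from −8.02 ± 0.38 to −6.90 ± 0.42 (SD, n = 5 per group), and was higher with tunicamycin in 5 of 5 pairs (two-sided exact permutation test, p = 0.00794, adjusted over 8 ratios p = 0.0159). A p of 0.00794 is the smallest that 5 against 5 libraries allow. Of the 8 ratios 4 passed, and in a sign-flip test within replicate pairs (exact, two-sided) each of these 4 had an adjusted p of 0.1, since 5 pairs allow no p below 0.0625. A ratio within a library does not depend on the scaling of library sizes. The fitted log2 fold changes were 0.30 for MTTP, which was not called, and −0.78 for APOB. The MTTP/APOB ratio is therefore not separate from the fall of APOB.

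APOA1, the main protein of HDL and the activator of LCAT, fell to 53.3% of control. Control replicates 1 to 5 had 9929, 8619, 8472, 8993 and 8851 normalized counts of APOA1, against 5276, 5036, 4610, 4422 and 4560 with tunicamycin. Every tunicamycin library lay below every control library. The log2 fold change of APOA1 was −0.91 (SE 0.08, edgeR adjusted p = 8.92e-08), with means of 8973 ± 571 and 4781 ± 360 (SD, n = 5 per group).

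APOA2, the other main HDL protein, fell less. For APOA2 the normalized counts of control replicates 1 to 5 were 26396, 23464, 22419, 22174 and 25052, and those of the tunicamycin libraries were 20494, 19103, 20585, 17987 and 17538. The groups did not overlap, although the highest tunicamycin library and the lowest control library were close. APOA2 had a log2 fold change of −0.32 (SE 0.08, edgeR adjusted p = 0.0048). The number of APOA2 counts per APOA1 count rose from a log2 ratio of 1.41 ± 0.07 to 2.00 ± 0.10 (SD, n = 5 per group), a difference of 0.59 (exact permutation test, p = 0.00794, adjusted p = 0.0159), so the fall of these HDL mRNAs was unequal.

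APOM, a small HDL protein that carries sphingosine-1-phosphate, did not pass the test. Normalized counts of APOM were 258, 275, 245, 289 and 337 in the control libraries and 291, 313, 277, 265 and 268 in the tunicamycin libraries, in replicate order. The groups overlapped, and the lowest and highest values were both in control libraries. The fitted log2 fold change of APOM was 0.01 (95% interval −0.20 to 0.23, edgeR adjusted p = 0.929), and its sign turned to −0.07 with library totals alone as the scale. APOM counts per APOA1 count rose by 0.93 on the log2 scale, from −5.00 ± 0.20 to −4.08 ± 0.06 (SD, n = 5 per group, exact permutation test, p = 0.00794, adjusted p = 0.0159). APOA1 itself had a log2 fold change of −0.91, so this ratio restates that fall and is no separate result on APOM.

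**Figure D2:**
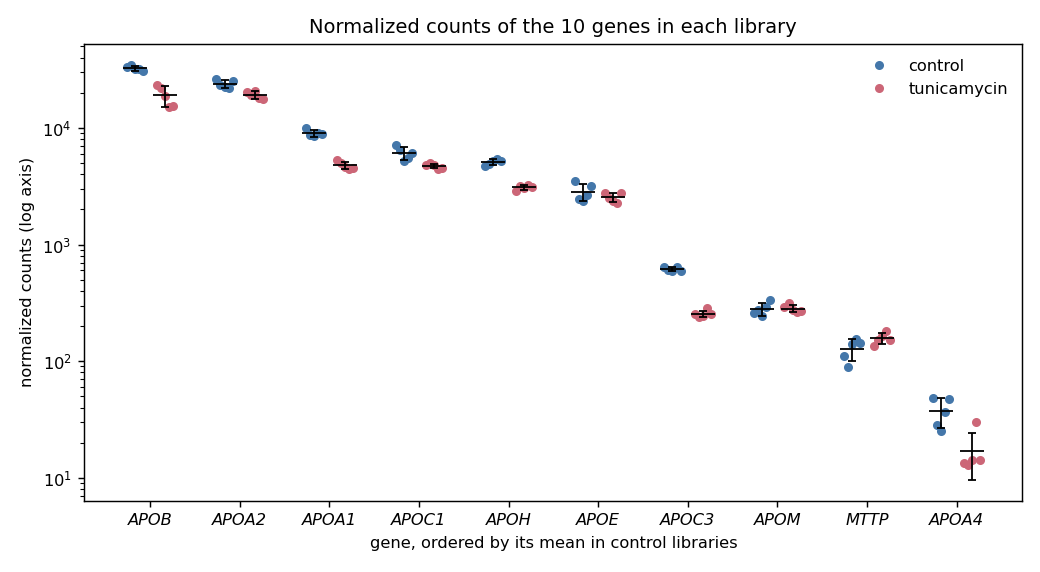
Normalized counts (y axis, log scale) of the 10 genes (x axis) in each control (blue) and tunicamycin (red) library, with bars for mean and SD (n = 5 per group). APOA1, APOA2, APOB, APOC1, APOC3 and APOH have no tunicamycin point at or above a control point, whereas the points of APOA4, APOE, APOM and MTTP overlap.

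APOC3, an inhibitor of lipoprotein lipase and of the uptake of remnant particles, had the most negative log2 fold change of the 10 genes. In replicate order, the control libraries held 646, 606, 594, 646 and 598 normalized counts of APOC3, and the tunicamycin libraries 252, 240, 243, 283 and 256. The groups were far apart and each was narrow, with coefficients of variation of 4.21% and 6.70%. The log2 fold change of APOC3 was −1.28 (SE 0.08, edgeR adjusted p = 1.27e-09), which left 41.2% of the control mean, and 2.71% of tested genes had a lower log2 fold change. APOC3 counts per APOA1 count, its neighbour in the chromosome 11 cluster, fell by 0.37 on the log2 scale, from −3.86 ± 0.06 to −4.23 ± 0.18 (SD, n = 5 per group, exact permutation test, p = 0.00794, adjusted p = 0.0159).

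APOA4, which in humans is made mainly in the small intestine, was scarce, with 7 to 56 raw counts per library. Control replicates 1 to 5 had 48.2, 28.5, 25.4, 36.7 and 47.8 normalized counts of APOA4, against 13.5, 12.9, 14.2, 30.2 and 14.1 with tunicamycin. Tunicamycin replicate 4 lay within the control range and the other 4 tunicamycin libraries below it. APOA4 had a log2 fold change of −1.16 (SE 0.28, edgeR adjusted p = 0.00313), and −1.44 without tunicamycin replicate 4, the library with the highest mitochondrial share, whose part in this value was not tested. The ratios of APOA4 to its cluster neighbours did not pass the test: the log2 ratio to APOA1 differed by −0.23 (exact permutation test, p = 0.468, adjusted p = 0.624) and that to APOC3 by 0.14 (exact permutation test, p = 0.635, adjusted p = 0.635), at a depth of few counts.

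APOC1, an inhibitor of cholesteryl ester transfer protein, fell to 77.7% of control. For APOC1 the normalized counts of control replicates 1 to 5 were 7068, 6509, 5157, 5469 and 6135, and those of the tunicamycin libraries were 4762, 5017, 4774, 4481 and 4538. The groups did not overlap, and control replicate 3 came nearest to the tunicamycin range. The fitted log2 fold change of APOC1 was −0.36 (SE 0.09, edgeR adjusted p = 0.0042).

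APOE, a ligand for the uptake of remnant particles encoded next to APOC1, did not pass the test. Normalized counts of APOE were 3471, 2471, 2378, 2647 and 3204 in the control libraries and 2793, 2500, 2359, 2280 and 2787 in the tunicamycin libraries, in replicate order. The groups overlapped, with control replicates 1 and 5 above all others and tunicamycin replicates 3 and 4 below all control libraries. The log2 fold change of APOE was −0.16 (95% interval −0.38 to 0.07, edgeR adjusted p = 0.283). The log2 ratio of APOE to APOC1 was higher with tunicamycin in 5 of 5 pairs, by 0.21 on average, and did not pass the test (exact permutation test, p = 0.0714, adjusted p = 0.114). Without control replicate 5 the ratio differed by 0.25 and passed (exact permutation test, adjusted p = 0.0254), so the call, though not the direction, depended on 1 library.

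APOH, also called beta-2-glycoprotein I, binds anionic phospholipids and fell to 60.8% of control. In replicate order, the control libraries held 4688, 4865, 5239, 5420 and 5217 normalized counts of APOH, and the tunicamycin libraries 2875, 3170, 3053, 3223 and 3136. The groups were well apart. APOH had a log2 fold change of −0.72 (SE 0.08, edgeR adjusted p = 9.55e-07). The log2 ratio of APOH to APOB differed by 0.08 (exact permutation test, p = 0.603, adjusted p = 0.635), with pair differences from −0.22 to 0.33.

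**Figure D3:**
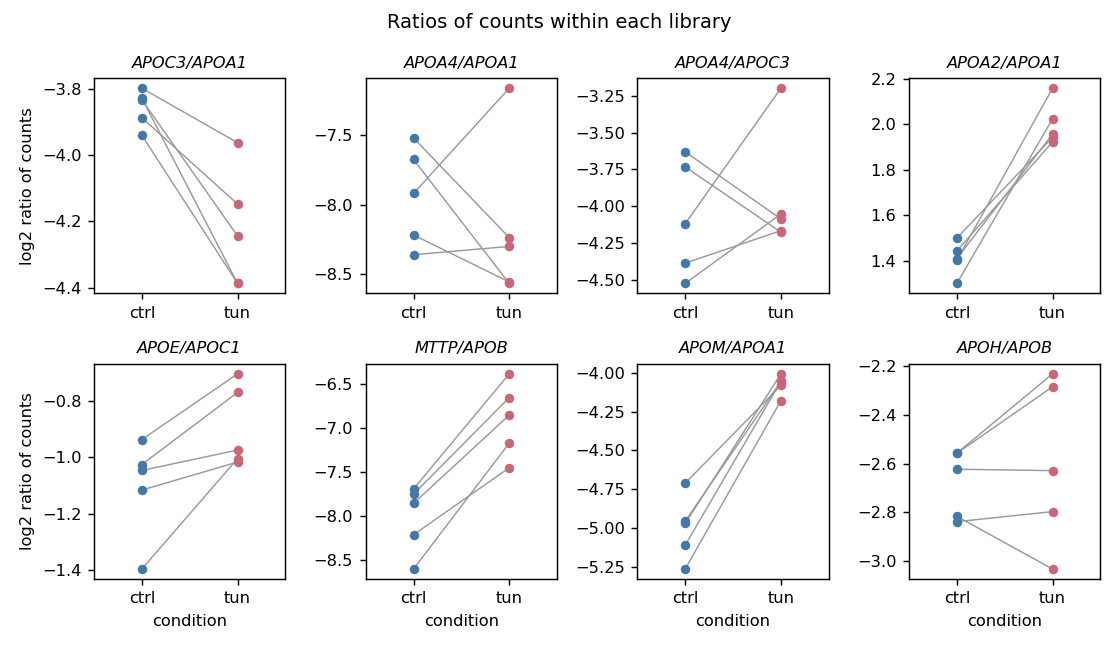
Log2 ratio of the counts of gene pairs (y axis) in control (ctrl) and tunicamycin (tun) libraries, with a line joining libraries of the same replicate number. The lines of APOA2/APOA1, APOM/APOA1 and MTTP/APOB rise in 5 of 5 pairs and those of APOC3/APOA1 fall in 5 of 5, whereas those of APOA4/APOA1, APOA4/APOC3 and APOH/APOB run both ways.

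In 6 of the 10 genes all 5 tunicamycin libraries lay below all 5 control libraries, a pattern that 11.9% of tested genes showed. Since 6 of the 10 genes averaged at least 1000 normalized counts, they were also set beside the 569 tested genes at that level. Of those 569 genes 21.6% were called lower and 34.8% higher, and their median log2 fold change was 0.06.

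Together the 10 mRNAs held 1.90% ± 0.087 of all counts in control and 1.20% ± 0.175 in tunicamycin libraries (SD, n = 5 per group). The share ranged from 1.81% to 2.04% in control and from 0.986% to 1.42% in tunicamycin libraries, lowest in tunicamycin replicate 4, and these values carry no test. With mitochondrial genes left out of the total the shares were 2.49% and 1.56%. Within the counts of the 10 genes, APOB went from 40.5% ± 1.97 to 34.9% ± 3.61 and APOA1 from 11.1% ± 0.439 to 8.88% ± 0.395. APOA2 went from 29.7% ± 1.24 to 35.6% ± 1.94 and APOE from 3.51% ± 0.487 to 4.74% ± 0.587, each higher in 5 of 5 pairs.

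**Figure D4:**
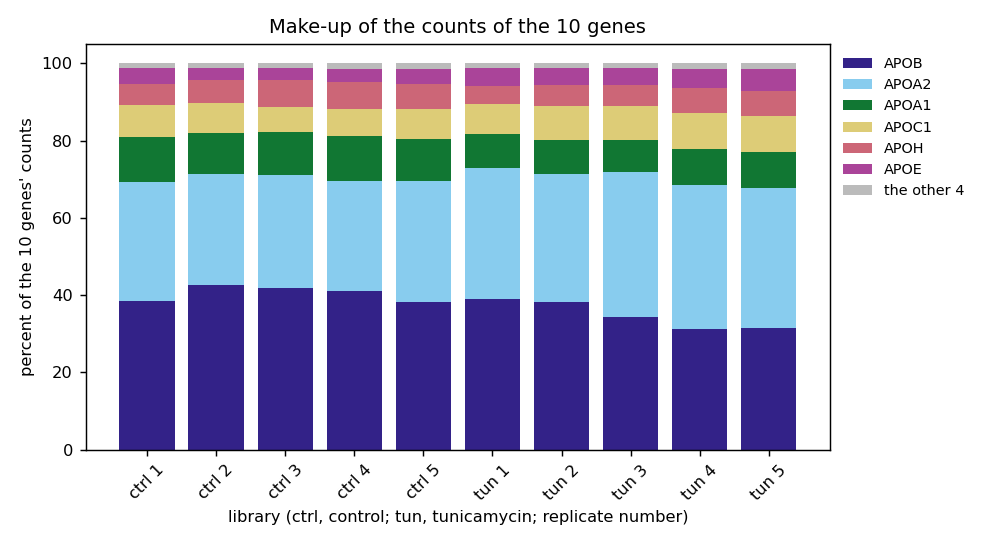
Percent of the counts of the 10 genes (y axis) held by each gene in each library (x axis), as stacked bars, with APOC3, APOM, MTTP and APOA4 drawn as 1 grey segment. The APOA2 segment averages 29.7% in control and 35.6% in tunicamycin libraries, and the APOB segment 40.5% and 34.9%.

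The order of the levels, in counts not divided by length, also differed between the groups. In control libraries the order of mean normalized counts was APOB, APOA2, APOA1, APOC1, APOH, APOE, APOC3, APOM, MTTP and APOA4, and APOB ranked 10 among all genes. Each gene lay above the next in 5 of 5 control libraries, except that APOC1 lay above APOH in 4 of 5 and their ranges overlapped. In tunicamycin libraries the ranges of APOA2 and APOB overlapped, as did those of APOA1 and APOC1, with the first of each pair above in 3 of 5 libraries. APOM lay above APOC3 in 4 of 5 tunicamycin libraries and below it in all 5 control libraries. The number of APOB counts per APOA2 count, a ratio chosen after the values were seen and given with no test, was 1.25, 1.48, 1.44, 1.44 and 1.23 in control and 1.15, 1.15, 0.918, 0.842 and 0.872 in tunicamycin libraries, in replicate order.

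Of 18 other apolipoprotein genes, 9 could be tested, 5 of these were lower with tunicamycin, 0 were higher, and the median log2 fold change was −0.50. The shares over all tested genes were 16.6% lower and 17.6% higher. APOA5, an activator of lipoprotein lipase action, went from 265 ± 22.7 to 91.0 ± 8.13 normalized counts (SD, n = 5 per group) and fell by 1.55 on the log2 scale (SE 0.11, edgeR adjusted p = 3.80e-09). SAA4, a constitutive HDL protein of the serum amyloid A family, went from 897 ± 78.2 to 294 ± 34.4 and fell by 1.61 (SE 0.10, edgeR adjusted p = 4.93e-10). CLU, also named apolipoprotein J, went from 2082 ± 57.4 to 1504 ± 317 and fell by 0.47 (SE 0.11, edgeR adjusted p = 0.00266). APOL1 fell by 1.18 from a mean of 20.2 normalized counts (edgeR adjusted p = 0.0052), and APOL6 by 0.42 from a mean of 147 (edgeR adjusted p = 0.0114).

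The other 4 tested apolipoproteins did not pass: APOF had a log2 fold change of −0.80 (edgeR adjusted p = 0.097), APOL2 −0.50 (adjusted p = 0.315), APOOL −0.23 (adjusted p = 0.602) and APOO 0.07 (adjusted p = 0.826). APOO and APOOL are mitochondrial proteins of the apolipoprotein O family. APOC2, APOC4, APOD, APOL5 and LPA were at 0 counts throughout the 10 libraries. A count of 0 in 1 library, taken alone, allows up to 3 counts, and 0 in all 10 sets a tighter limit. APOL3, APOL4, SAA1 and SAA2 had 16, 6, 1 and 7 counts over all libraries and were not tested. SAA2 and SAA4 share exon positions with the readthrough gene SAA2-SAA4, and APOC2 and APOC4 with the readthrough gene APOC4-APOC2, on the same strand. How reads on shared positions were counted is not given in the sources used here. The 0 counts of APOC2 and APOC4 therefore do not show that their mRNAs were absent.

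**Figure D5:**
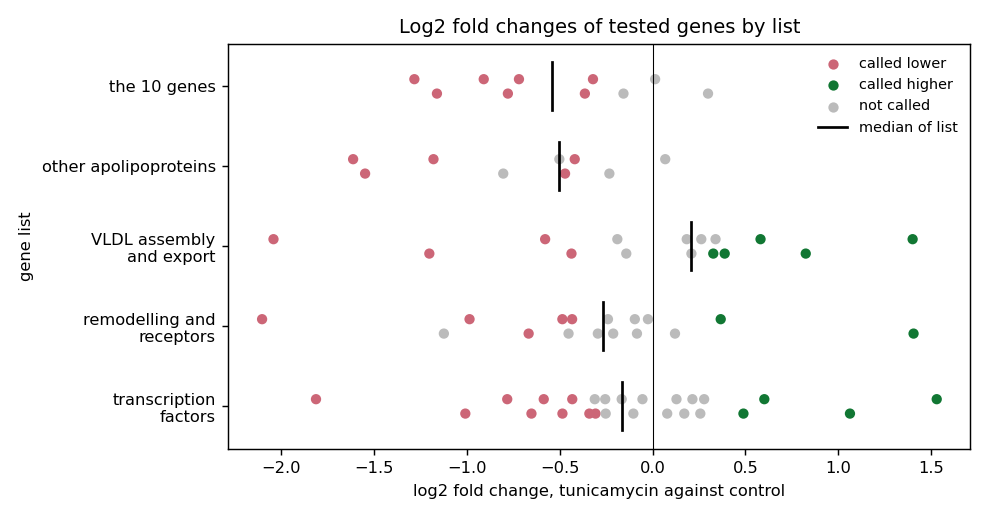
Log2 fold change (x axis, tunicamycin against control) of every tested gene in each of 5 gene lists (y axis), in red where called lower, green where called higher and grey where not called, with a black line at the list's median. Called genes of the 10 members and of the other apolipoproteins lie below 0, whereas the VLDL assembly list has called genes on both sides, from −2.04 for DGAT2 to 1.40 for TMEM41B.

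Of 16 other genes of VLDL assembly and export, 15 were tested, 4 were lower, 5 were higher, and the median log2 fold change was 0.21. Over all tested genes, 16.6% were called lower and 17.6% higher. DGAT2, which makes triglyceride from diacylglycerol, went from 543 ± 11.7 to 132 ± 9.51 normalized counts (SD, n = 5 per group) and fell by 2.04 (SE 0.09, edgeR adjusted p = 3.62e-12). PLA2G12B, an inactive phospholipase relative needed for the lipidation of APOB particles, went from 73.3 ± 13.8 to 31.0 ± 10.3 and fell by 1.20 (SE 0.21, edgeR adjusted p = 0.00017). TMEM41B, an ER lipid scramblase, went from 91.1 ± 20.1 to 242 ± 31.9 and rose by 1.40 (SE 0.14, edgeR adjusted p = 4.92e-07).

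The remaining called genes of that list, named after their values were seen, were DGAT1 (−0.58) and SORT1 (−0.44) among those lower and P4HB (0.82), SURF4 (0.58), SAR1B (0.39) and MIA3 (0.33) among those higher. P4HB is a protein disulfide isomerase and the partner subunit of MTTP, SURF4 is a cargo receptor in the ER membrane, and SAR1B and MIA3 serve the export of large cargo from the ER. Of the list's other genes of ER export, SAR1A (−0.14, edgeR adjusted p = 0.20), KLHL12 (0.34, adjusted p = 0.171) and CTAGE5 (0.21, adjusted p = 0.644) did not pass. CES1 had 0 counts, and exons of P4HB, SAR1B, MIA3, DGAT1 and DGAT2 overlap genes on the opposite strand.

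Of 21 genes of lipoprotein remodelling and uptake, 16 were tested, 5 were lower, 2 were higher, and the median log2 fold change was −0.27. Of all 12733 tested genes, 16.6% were called lower and 17.6% higher. LIPC, hepatic lipase, went from 109 ± 27.5 to 56.0 ± 13.7 normalized counts (SD, n = 5 per group) and fell by 0.98 (SE 0.19, edgeR adjusted p = 0.000565). VLDLR, the VLDL receptor, went from 19.6 ± 9.24 to 51.1 ± 9.0 and rose by 1.40 (SE 0.27, edgeR adjusted p = 0.000567). LCAT (−0.67), LRPAP1 (−0.43) and SORL1 (0.37), named after their values were seen, were also called. LCAT had means of 26.9 and 16.6 normalized counts in control and tunicamycin libraries, the groups overlapped, and its edgeR adjusted p was 0.0421. LCAT shares exon positions with SLC12A4 on the same strand, and exons of VLDLR overlap VLDLR-AS1 on the opposite strand.

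Among 25 transcription factors known for the control of apolipoprotein genes, all 25 were tested, 9 were lower, 4 were higher, and the median log2 fold change was −0.17. Beside this, 16.6% of all tested genes were called lower and 17.6% higher. CREB3L3, an ER-bound factor known to act on APOA4 and other apolipoprotein genes in liver, went from 82.3 ± 13.6 to 22.8 ± 6.04 normalized counts (SD, n = 5 per group) and fell by 1.81 (SE 0.19, edgeR adjusted p = 6.89e-07). CEBPB went from 145 ± 11 to 419 ± 66.5 and rose by 1.53 (SE 0.12, edgeR adjusted p = 9.46e-09), and ESRRA, an estrogen-related receptor, went from 113 ± 48.9 to 235 ± 33.9 and rose by 1.06 (SE 0.23, edgeR adjusted p = 0.00121). HNF4A, a regulator of many liver genes that was looked at after its value was seen, had a log2 fold change of 0.26 and did not pass (edgeR adjusted p = 0.0586). Exons of CEBPB and ESRRA overlap CEBPB-AS1 and TRMT112 on the opposite strand, and HNF4A shares exon positions with MIR3646 on the same strand.

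The genes whose log2 counts, scaled to library size, ran most like those of a member over the 10 libraries were found among 9706 genes, and the correlation is given as a description with no test, since the libraries share 2 conditions and their depth. For APOC3 they were CPB2 (Pearson's r = 0.996), FDFT1 (0.994) and MCM4 (0.993), with log2 fold changes of −2.60, −1.35 and −1.31. For APOB they were PCM1 (0.989), RFC3 (0.989) and TOP2A (0.987), with log2 fold changes of −0.59, −1.25 and −0.92. For MTTP they were PHF13 (0.942), C18orf21 (0.940) and CLCN2 (0.936), with log2 fold changes of 0.51, 0.60 and 1.59.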

How the data were processed

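RNA was measured in 5 control and 5 tunicamycin HepG2 libraries, grouped by their labels. The authors deposited raw counts per gene, from 3′ libraries (QuantSeq FWD) processed with the default settings of an nf-core pipeline. The genome build was hg19, per the submitters' processing notes, and the names of the aligner and counter and the strand setting are not given in the sources used here. All sample columns were used. Positions are those of the same Ensembl IDs in GENCODE for GRCh38, not of hg19.

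Genes were filtered with filterByExpr (minimum count 2, minimum total 10), scaled by TMM and tested in edgeR 4.0.16 (R 4.3.3) by its quasi-likelihood test, with no term but condition and Benjamini-Hochberg adjustment at 0.05. Normalized counts are counts scaled to the mean effective library size. Ratios within a library used a pseudocount of 0.5 and a two-sided exact permutation test over libraries (scipy 1.17.1). DESeq2 1.42.0, other scalings and filters, a replicate block, thinned counts and leaving out libraries were alternatives. The scripts were tested on simulated data. Of 100 genes with a simulated log2 change of 0.5, 29 were called in the right direction, and of 100 with a change of 1.0, 88 were. Among 12567 tested genes, 17 unchanged ones were called. A gene that did not pass may thus have a change of about 0.5 or less.

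The series text pairs replicates by day, and the deviations of paired libraries from their group means correlated by 0.361, 0.0153, 0.0674, 0.165 and 0.145 over 9707 genes. The members and lists were chosen with earlier results of these data known. Genes named were the members, the other apolipoproteins, per further list the 3 called genes with the largest log2 fold change in size and at least 20 normalized counts, and 3 genes most like APOC3, APOB and MTTP. Some genes that this rule names are not reported here. Limits on counts of 0 cover counting error only, whereas the 95% intervals also include the variation between libraries that edgeR estimated.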

Additional observations from a re-analysis of the deposited data

Results flagged for a closer look

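In 3 of 40 groups of 5 values, 1 library lay far from the others, and all 3 were values of APOA4 in tunicamycin replicate 4. The 3 are not separate, since both ratios reuse the same APOA4 count. Chance alone gives about 2 in 40 groups, but the 3 cannot be set against that number for this reason. APOA4 had 30.2 normalized counts there, from 22 raw counts, against 12.9 to 14.2 in the other 4 tunicamycin libraries. The log2 ratio of APOA4 to APOA1 was −7.16 there, against −8.56 to −8.24 in the others. The log2 ratio of APOA4 to APOC3 was −3.20, against −4.18 to −4.05. The same library held 18 of the 18 counts of CDH5 and the highest mitochondrial share, 28.8%. The part of these in the APOA4 value was not tested.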

How the results depend on the processing

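Under 19 alternatives each, the calls of the 10 genes stayed as reported, apart from MTTP, and the number of members called was 7 in each except 8 with the replicate block. With the replicate block in edgeR, MTTP had a log2 fold change of 0.32 (adjusted p = 0.0385), and it changed no other member's call. In the paired sign-flip test of the ratios 0 of 8 passed, against 4 of 8 in the unpaired test, because 5 pairs allow no p below 0.0625. The APOC3/APOA1, APOA2/APOA1, MTTP/APOB and APOM/APOA1 differences of −0.37, 0.59, 1.12 and 0.93 each had an adjusted p of 0.1 in it. Without control replicate 5, 5 of 8 ratios passed, with APOE/APOC1 at 0.25 (exact permutation test, adjusted p = 0.0254). Over all genes 4353 were called, and 3477 to 4811 under the alternatives. Of the pathway lists' genes 34 were called, and 31 to 36 under the alternatives. Of 342 fold changes of other named genes under alternatives, 341 kept their call; APOL6 lost it (−0.38, edgeR adjusted p = 0.0502) against the 3 tunicamycin libraries with the largest totals, an alternative chosen after seeing the data. In that setting the median of the 10 genes was −0.46. The share of counts held by the 10 genes in tunicamycin libraries was 63.5% of control, and 60.6% to 66.4% when 1 library was left out. Depth limits APOA4 and the genes with fewer than about 20 normalized counts most.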
